A study of Mus musculus with 2 samples.

Results

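Fibroblasts marked by Dact2, Igfbp5 and Sema3c made up 631 of the 4774 cell barcodes recovered from mouse aorta, 148 from a young mouse and 483 from an old one. They were chosen by a rule on the measured counts. A barcode was taken as a fibroblast if at least 5 of the 8 fibroblast genes Pdgfra, Dpt, Lum, Dcn, Col1a1, Col1a2, Serpinf1 and Clec3b were detected, and more of these than of the 8 endothelial genes Pecam1, Cdh5, Tie1, Egfl7, Cldn5, Ecscr, Esam and Eng. A fibroblast was a member if its unique molecular identifiers (UMIs, each standing for 1 captured transcript) summed over Dact2, Igfbp5, Sema3c, Pla1a, Adamts5 and Aldh1a3 exceeded those summed over Gdf10, Mfap4, F3, Angptl1, Gas1 and Fbln7. Fibroblasts with the opposite order are called Gdf10-side. Both mice were of the C57BL6/J strain, 1 aged 8 weeks and 1 aged 18 months, and the labels name neither a treatment nor an engineered allele. In both the adventitia was dissected away, and the luminal surface was loosened with trypsin and scraped to collect endothelium, so the fibroblasts are those that came with it. Transcripts were counted from their 3′ ends in droplets, in 1 library per animal. Age, animal and library therefore cannot be told apart, no test between ages was possible, and every 95% interval covers counting error only.

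Fibroblasts of the arterial wall lie mostly in the adventitia, where they make and remodel collagen, microfibrils and proteoglycans. Fibroblasts rich in Pi16, Dpt and Dpp4 are found in many mouse organs and are often described as a reservoir from which more specialised fibroblasts arise. Among the genes that chose the members, Dact2 encodes a cytoplasmic modulator of Wnt and TGF-beta signalling, Igfbp5 binds insulin-like growth factors, and Sema3c is a secreted guidance cue read by neuropilins and plexins. Adamts5 cleaves aggrecan and versican, Aldh1a3 makes retinoic acid, and Pla1a is a phosphatidylserine-specific phospholipase.

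The members were 62.2% of 238 young fibroblasts (exact 95% interval 55.7 to 68.4%) and 88.1% of 548 old fibroblasts (85.1 to 90.7%). The Gdf10-side fibroblasts numbered 89 young and 56 old cells, and 1 young and 9 old fibroblasts had equal sums. Young members were deeper, at a median of 9511.5 UMIs, than old members, at 4911. When every barcode was first reduced at random to 3900 UMIs, and shallower ones left out, members were 65.4% of 205 young and 93.4% of 396 old fibroblasts. As values that made the choice, the median sum over the 6 Dact2-side genes was 50.5 UMIs (3 to 230) in young members and 33 UMIs (1 to 133) in old members. The sum over the 6 Gdf10-side genes in the same cells had a median of 2 and 0 UMIs. Just inside the threshold, 10 young and 40 old members led by 1 to 5 UMIs, and just outside it 16 young and 40 old fibroblasts had a lead of 0 to -5 UMIs. At least 4 of the 6 Dact2-side genes were detected in 82.4% of young and 81.4% of old members.

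**Figure D1:**
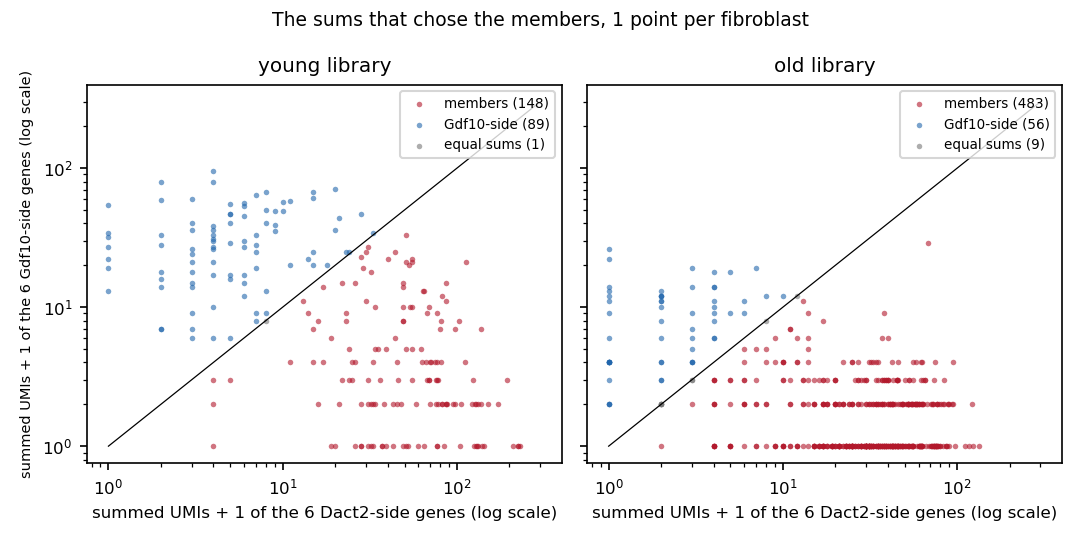
Summed UMIs of the 6 Gdf10-side genes against summed UMIs of the 6 Dact2-side genes in each fibroblast, young at left and old at right, with members and Gdf10-side cells in different colours. The 148 young and 483 old members lie on the Dact2 side of the line of equal sums by construction.

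The 2 libraries held 1366 young and 3408 old barcodes, of which 1099 and 2383 were endothelial by the mirrored rule. They shared 11 barcode sequences, which included 1 young member, 0 old members and 0 barcodes that were members in both. By the rule, members carried a median of 8 of the 8 fibroblast genes in young and 6 in old, which is no check of the label. They also carried a median of 3 endothelial genes in each library, and 22 young and 66 old members had 5 or more. The 8 endothelial genes together stood at 573 CPM (UMIs summed over a class and scaled to its total) in young members and 856.9 CPM in old members, against 8230 and 8100 CPM in endothelial barcodes. The 10 macrophage markers stood at 14.3 CPM in young members and 182.5 CPM in old members, with at least 3 of them in 0 young and 8 old members. The 5 erythroid markers stood at 25.7 and 1481 CPM, and the 10 smooth muscle markers at 45.7 and 90.1 CPM. The part that RNA from other cells or doublets played in the results was not tested.

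Per gene, the values that chose the members differed in their order between the libraries. Igfbp5 stood at 4505 CPM in young members and 4305 CPM in old members, and Sema3c at 691 and 731 CPM. Dact2 was lower in old members (440 against 331 CPM). Pla1a was higher in old members (186 against 365 CPM), as was Aldh1a3 (171 against 278 CPM), and Adamts5 stood at 662 and 773 CPM. Both Gdf10, a BMP family ligand, and F3, the tissue factor that starts coagulation, were low in members by the rule. Gdf10 stood at 85.6 CPM in young members and 19.7 CPM in old members, against 912 and 497 CPM in Gdf10-side cells. All 6 Dact2-side genes were also higher in old than in young endothelial barcodes, where they were sparse, 4 of them at least 2-fold, with a median log2 ratio of 1.20.

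Members were next compared with Gdf10-side fibroblasts within each library, to see what they shared beyond the genes of the rule. Since the same cells were sorted by their counts, these values describe the choice. Ratios from here on are log2 ratios of CPM. Among 4859 genes with at least 50 UMIs, the 12 rule genes left out, 109 (2.24%) were at least 2-fold higher in members in both libraries and 95 (1.96%) at least 2-fold lower. The median log2 ratio over all genes was -0.006 in young and 0.01 in old.

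The leading gene was Akr1c18 (chromosome 13, 4132615 to 4150654, minus strand, GRCm38), the 20-alpha-hydroxysteroid dehydrogenase that inactivates progesterone. It had 257 UMIs in young members and 427 UMIs in old members, and 0 in Gdf10-side cells of either library. With 3 counts in place of each 0, Akr1c18 was at least 39.2-fold higher in young members and at least 12.3-fold higher in old members. At equal depth it was seen in 25.6% of young members (18.4 to 33.9%) and 30.2% of old members (25.6 to 35.1%). Before thinning these shares were 39.2% and 33.8%. In endothelial barcodes it was seen in 0.445% and 1.01% at equal depth, where the medians before thinning were 7467 and 5384 UMIs.

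Mrgprg, an orphan G protein-coupled receptor of a family best known from sensory neurons, had 58 UMIs in young members and 444 UMIs in old members. Gdf10-side cells held 0 young and 1 old UMI of Mrgprg. It was seen in 4.51% of young members (1.67 to 9.56%) and 22.9% of old members (18.7 to 27.5%) at equal depth, and in 8.11% and 25.5% before thinning. Endothelial barcodes showed Mrgprg in 0.111% and 0.631% at equal depth. The old members thus held more of this receptor than the young ones, and both held more than the other classes.

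Cd55, which protects cells from complement, stood at 567 CPM in young members and 507 CPM in old members, against 62.3 and 58.3 CPM in Gdf10-side cells. Its log2 ratio was 3.18 in young and 3.12 in old, and 11.4% of its 3′ sequence was shared with its paralogue Cd55b. The cyclooxygenase Ptgs1, which begins prostaglandin synthesis, had log2 ratios of 1.98 and 2.81. Ugdh, which makes the UDP-glucuronate used for hyaluronan and other glycosaminoglycans, stood at 1226 CPM in young members and 1229 CPM in old members, with log2 ratios of 1.89 and 2.40. Creb5, a transcription factor that binds cAMP response elements, stood at 623 and 612 CPM in members, with log2 ratios of 1.81 and 2.01. The sphingomyelinase Smpd3 had ratios of 1.77 and 2.87, and the secreted protease Prss23 1.77 and 2.85. Basp1, a membrane protein of growth cones, had ratios of 3.44 and 2.68, and Olfml2a, an olfactomedin-domain matrix protein, 3.44 and 4.23. Arl4d, a small GTPase, stood at 2.93 and 4.08, Aif1l, an actin-binding protein, at 2.91 and 3.90, and Efhd1, a mitochondrial calcium-binding protein, at 2.57 and 2.38.

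A further group came from 3 neighbouring genes on chromosome 7, all on the plus strand and best known from stratified epithelium, where they encode secreted proteins of differentiating keratinocytes. Sbsn (suprabasin) spans 30751471 to 30756134, Dmkn (dermokine) 30763756 to 30781063, and Krtdap (keratinocyte differentiation-associated protein) 30787896 to 30791097 in GRCm38. Their upstream sequences are shown because the 3 genes are neighbours that were each higher in members than in Gdf10-side cells. The spans above are from GENCODE, and the windows are from RefSeq (GRCm38.p6) and leave out the last 10 bases before the RefSeq start. That start is 30751471 for Sbsn, 30763756 for Dmkn and 30787905 for Krtdap. They are chr7:30751221-30751460 for Sbsn, chr7:30763506-30763745 for Dmkn and chr7:30787655-30787894 for Krtdap, 5′ to 3′ on the plus strand. Capitals mark matches to TGANTCA, a looser form of the AP-1 consensus TGA(C/G)TCA, and to TATAAA, searched on both strands and not overlapping here. Dmkn and Krtdap hold TGAGTCA, while Sbsn holds TGAATCA, which is outside that consensus.
Sbsn: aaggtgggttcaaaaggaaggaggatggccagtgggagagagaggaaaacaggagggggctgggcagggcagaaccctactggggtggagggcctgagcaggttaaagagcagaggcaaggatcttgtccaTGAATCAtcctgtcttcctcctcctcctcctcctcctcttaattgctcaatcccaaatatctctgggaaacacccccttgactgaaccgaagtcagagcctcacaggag
Dmkn: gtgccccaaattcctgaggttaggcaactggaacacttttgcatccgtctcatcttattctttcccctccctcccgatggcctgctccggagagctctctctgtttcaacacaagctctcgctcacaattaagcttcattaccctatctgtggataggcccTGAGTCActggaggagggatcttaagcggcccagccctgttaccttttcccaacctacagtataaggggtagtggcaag
Krtdap: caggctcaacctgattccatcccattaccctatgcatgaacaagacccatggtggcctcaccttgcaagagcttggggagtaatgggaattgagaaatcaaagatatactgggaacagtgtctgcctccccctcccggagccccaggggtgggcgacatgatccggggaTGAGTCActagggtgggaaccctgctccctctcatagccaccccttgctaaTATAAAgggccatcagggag
TGANTCA began at -119 bases from the RefSeq start in Sbsn, at -89 in Dmkn and at -81 in Krtdap. It was found in 6.59% of 32817 promoter windows of the same length. TATAAA began at -30 in Krtdap, was not found in the other 2 windows, and occurred in 12.1% of all windows. CCAAT, in 33% of all windows, was in none of the 3. These matches describe letters and not bound sites.

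Sbsn had 272 UMIs in young and 570 UMIs in old members, against 10 and 2 in Gdf10-side cells, log2 ratios of 3.64 (2.74 to 4.72) and 4.62. A share of 20.8% of its 3′ sequence was common with Tmem147os. Krtdap had 71 and 176 UMIs in members and 0 in Gdf10-side cells, at least 10.8-fold and at least 5.06-fold higher. Dmkn had 18 young and 194 old UMIs in members, against 0 and 1. At equal depth, 38 of 133 young and 123 of 371 old members held a UMI of at least 1 of the 3 genes, and 3 and 15 held all of them. Most of these members showed only 1 of the genes. At such low counts a gene without a UMI may still be expressed. In all, 9 of 133 young members (6.77%, 3.14 to 12.5%) and 33 of 371 old members (8.90%, 6.20 to 12.3%) held at least 2 of the 3 genes. Before thinning these shares were 8.11% and 9.52%. In Gdf10-side cells the counts were 0 of 69 (exact upper bound 5.21%) and 0 of 18 (18.5%), and in endothelial barcodes 0 of 899 and 2 of 1584 (0.126%). Dact2, a gene of the rule, was seen in 8 of those 9 young and 26 of those 33 old members (78.8%, 61.1 to 91.0%). In the other members it was seen in 56.5% and 58.9%. Krt19, a keratin of simple epithelium and mesothelium, was seen in 1 of those 9 young and 10 of those 33 old members. The 7 mesothelial markers summed to 25 young and 179 old UMIs in members (17.8 and 69.2 CPM), and at least 2 of them were seen in 0 young and 8 old members. Krt19 held 18 and 142 of these UMIs, Krt18, which endothelium also holds, 7 and 36, and Wt1 0 and 1. Msln, Upk3b, Krt8 and Lrrn4 had 0 UMIs in members of both libraries.

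**Figure D2:**
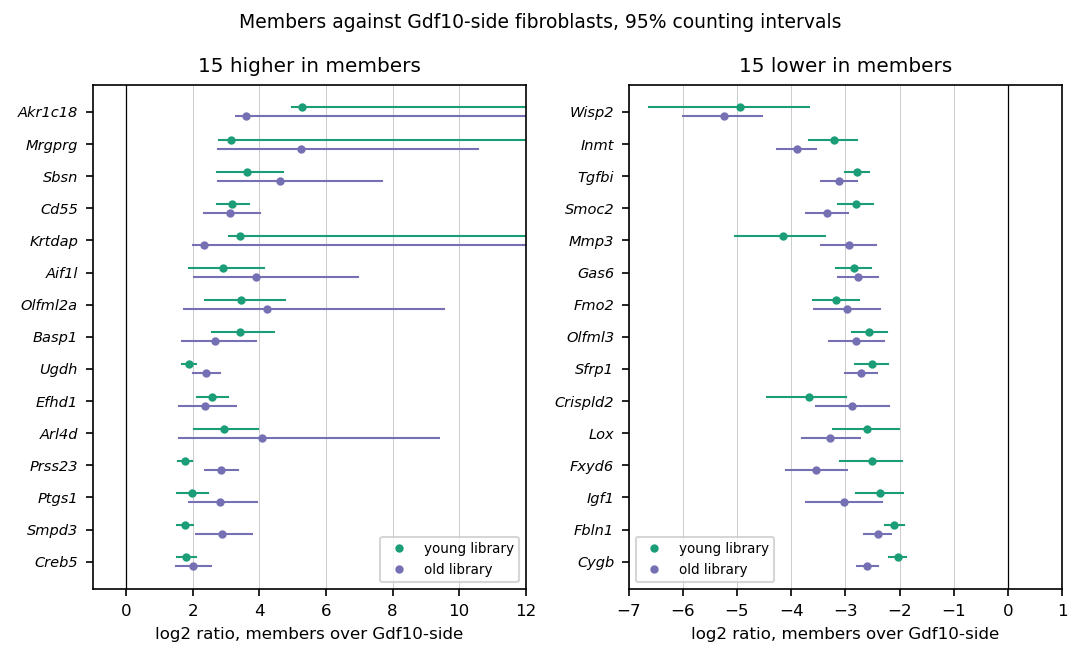
Log2 ratios of CPM of members over Gdf10-side fibroblasts in the young and the old library, with 95% counting intervals, for the genes named by rank in that comparison. Ratios have the same sign in both libraries by the naming rule. Sbsn lies at 3.64 and 4.62, and Wisp2 at -4.95 and -5.25.

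Of 27 measured genes of reservoir fibroblasts, 10 were at least 2-fold higher in members in both libraries and 3 lower, against 2.24% and 1.96% of all genes. The list's median log2 ratio was 0.48 in young and 0.76 in old. Pi16 was the most abundant of them in members, at 13260 CPM in young members and 7109 CPM in old members, against 5550 and 2819 CPM in Gdf10-side cells. Dpp4, the dipeptidyl peptidase CD26, stood at 108 and 131 CPM in members against 21.8 and 26.9 CPM, ratios of 2.30 and 2.28. Dpt, which binds decorin and collagen, had ratios of 1.13 and 0.90. The 3 genes of the list that were at least 2-fold lower were Penk, Sfrp4 and Pdgfra. In the library with the weaker ratio they stood at -1.88, -1.37 and -1.28. Among 14 elastic fibre genes 4 were higher and 1 lower. Fbn1, the main microfibril protein, had ratios of 1.66 and 2.19, Mfap5, a fibrillin-bound glycoprotein, 1.31 and 1.25, and Efemp1, fibulin-3, 3.58 and 1.32. Eln, tropoelastin, had ratios of -1.16 and -0.81.

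The genes lowest in members were led by Wisp2, a matricellular protein of the CCN family, with 5 young and 22 old UMIs against 71 and 72 in Gdf10-side cells. Its log2 ratios were -4.95 and -5.25. Inmt, a methyltransferase of indoles and thiols, had ratios of -3.22 and -3.90, and the stromelysin Mmp3 -4.15 and -2.94. The matrix proteins Tgfbi (-2.79 and -3.12), Smoc2 (-2.81 and -3.33), Fbln1 (-2.10 and -2.40) and Olfml3 (-2.56 and -2.80) were lower in both libraries. So were Lox, which cross-links collagen and elastin (-2.61 and -3.28), and Gas6, a ligand of TAM receptors (-2.85 and -2.77). Igf1, the growth factor that Igfbp5 binds, stood at 47.8 CPM in young members and 17.0 CPM in old members, against 246 and 139 CPM in Gdf10-side cells, ratios of -2.36 and -3.03. Igfbp5 is a gene of the rule, so its higher level in members came with the choice. The remaining ones were Cygb, a globin of fibroblasts (-2.03 and -2.60), Fmo2, a drug-metabolising oxygenase (-3.17 and -2.97), Fxyd6, a regulator of the sodium pump (-2.52 and -3.54), and Crispld2 (-3.68 and -2.88).

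Genes of the Wnt pathway were mostly lower in members. Of 14 measured, 8 were at least 2-fold lower in both libraries and 1 higher, against 1.96% and 2.24% of all genes. Their medians were -1.14 and -1.56. The same shares of all genes stand beside the counts of the other pathways below. Secreted Wnt inhibitors were among the lower ones, Sfrp1 with ratios of -2.51 and -2.71, Sfrp2 with -1.19 and -2.18, and Sfrp4 with -1.37 and -1.95. The ligand Wnt5a had ratios of -1.97 and -1.93, and the receptor Fzd1 -1.08 and -1.54. Dact1, the paralogue of Dact2, had ratios of 0.75 and 1.40. The single gene at least 2-fold higher was the ligand Wnt11, at 1.06 and 2.22, with intervals that reached below 0. Of 7 other genes of the insulin-like growth factor system 0 were higher and 1, Igf1, lower. Igfbp4 had ratios of -0.86 and -0.76, and Igfbp6 0.03 and 1.64. Of 8 retinoic acid genes 0 were higher and 3 lower, with Dhrs3, which reduces retinaldehyde, at -2.52 and -2.09. Among 11 genes of semaphorin and guidance signalling 1 was higher, Plxna1, a plexin co-receptor, at 1.36 and 3.34. The ephrin receptor Epha3 was lower, at -1.41 and -1.58, and Nrp1, a receptor subunit for class 3 semaphorins, stood at -0.61 and -0.73.

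Against endothelial barcodes, 699 of 10060 genes (6.95%) were at least 2-fold higher in members in both libraries and 1510 (15%) at least 2-fold lower. Centred on the median of all genes, these counts were 944 and 1174. The chemokine Ccl11 (eotaxin), which attracts eosinophils, stood at 585 CPM in young members and 695 CPM in old members, against 2.60 and 4.96 CPM in endothelium. Has1, a hyaluronan synthase, stood at 171 and 216 CPM in members against 1.54 and 2.72 CPM. It was also higher than in Gdf10-side cells, by 0.97 and 2.27. Fst, which binds activin, had 151 and 166 CPM in members, and Ebf2, a transcription factor of mesenchymal progenitors, 169 and 184 CPM. Tmem100 (786 and 560 CPM), Opcml (172 and 169 CPM), Medag (270 and 231 CPM), Dclk1 (123 and 147 CPM), Islr (724 and 316 CPM) and Basp1 (186 and 230 CPM) were also among the highest, each below 10 CPM in endothelium.

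To see whether members lay together by genes the rule did not use, all fibroblasts were clustered without the 12 rule genes, which gave 5 clusters. Of these, 4 were led by members and held 127 of 148 young members (85.8%, 79.1 to 91.0%) and 482 of 483 old members. The same clusters held 2 of 89 young Gdf10-side cells and 34 of 56 old ones (60.7%). A cluster was led by members if they were most of its cells. Since members were 631 of all 786 fibroblasts, most clusters could be led by them through their number alone. The old Gdf10-side cells were less apart from members than the young ones in this clustering, and their median depth was 2875.5 UMIs. One member cluster held 83 young and 0 old members and another 247 old and 0 young members, so these clusters split by library.

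Within members, 140 of 7137 genes (1.96%) were at least 2-fold higher in old and 180 (2.52%) at least 2-fold lower, with a median log2 ratio of -0.08 over all genes. In endothelial barcodes 254 of 11116 genes (2.28%) were at least 2-fold higher and 272 (2.45%) lower. Of 6922 genes measured in both classes, the interval in members lay above that in endothelium for 398 (5.75%) and below it for 599 (8.65%). Without barcodes that held 2 or more markers of another class, 35 young and 76 old members were left, and the member counts became 27 and 57. These were macrophage, T or NK, B and smooth muscle markers and, for fibroblasts only, the endothelial genes of the rule. At least 2 of those endothelial genes were held by 113 of 148 young and 401 of 483 old members. Erythroid markers were not used. The split by direction depended on the scaling. Ribosomal protein genes summed to 175400 CPM in young members and to 240900 CPM in old members, against 178100 and 190600 CPM in endothelium, and took more of the old total. With CPM computed without mitochondrial, ribosomal, haemoglobin and rule genes, 192 genes were at least 2-fold higher and 121 lower, and with ratios centred on the median of all genes 173 and 144.

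The 12 genes highest in old members were all at least 3-fold more abundant in another class, so each may include RNA from outside the cell. Antigen presentation by MHC class II led them. Cd74, the invariant chain, had 6 UMIs in young and 931 UMIs in old members, 4.28 and 360 CPM, a log2 ratio of 6.39 (5.27 to 7.84). H2-Aa stood at 5.71 and 140 CPM (4.61), and H2-Ab1 at 7.14 and 135 CPM (4.24). All 6 measured MHC class II genes were at least 2-fold higher in old members, with a median of 3.66. All 8 were in endothelial barcodes, with a median of 2.03. The others were macrophage genes, namely the complement genes C1qa, C1qb and C1qc, the signalling adaptors Tyrobp and Fcer1g, the lysozyme Lyz2, the chemokine Ccl6, Cd52 and Retnla. Lyz2 stood at 9.28 CPM in young members and 73.9 CPM in old members. Without barcodes that held 2 or more markers of another class, Cd74 stood at 3.65 (1.67 to 6.75) and H2-Ab1 at 3.08 (1.05 to 6.22), on 31 and 21 old UMIs. Lyz2 then stood at 0.95 (-0.65 to 2.81). C1qb had 1 young and 1 old UMI there, C1qc, Tyrobp and Cd52 0 and 2, and C1qa and Fcer1g 0 and 4, at or near the floor of 3 counts.

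Macrophage markers moved with these values. None of the 10 was seen in 132 of 148 young members and 284 of 483 old members. In those cells Cd74 stood at 3.21 CPM in young members and 125 CPM in old members, and H2-Aa at 6.42 and 74.9 CPM. In endothelial barcodes with none, Cd74 stood at 48.4 and 696 CPM. At equal depth Cd74 was seen in 2.26% of young and 33.2% of old members, and in 69.4% of old endothelial barcodes.

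Among genes that no other class held at over 3 times the level in members, Hes1, a transcriptional repressor and target of Notch signalling, stood out for its direction. These genes were ranked after the values had been seen. Hes1 stood at 85.6 CPM in young members and 331 CPM in old members, a log2 ratio of 1.95 (1.67 to 2.24). In endothelial barcodes it went the opposite way, from 195 to 85.9 CPM, with a log2 ratio of -1.18 (-1.29 to -1.08). At equal depth Hes1 was seen in 21.8% of young members (15.1 to 29.8%) and 50.4% of old members (45.2 to 55.6%), and in 39.9% and 53.6% before thinning. In endothelium the shares were 43.5% and 26.5%. In Gdf10-side fibroblasts Hes1 was higher in old as well, at 48.3 and 139 CPM.

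Cytokine and stress genes were among the others. Cxcl1, a neutrophil chemokine, stood at 152 CPM in young members and 375 CPM in old members, a log2 ratio of 1.30 (1.09 to 1.52), and at 66.0 and 31.2 CPM in endothelium. It was seen in 22.6% of young and 40.2% of old members at equal depth. Il6 stood at 25.7 and 80.0 CPM in members (1.64, 1.12 to 2.19), and Socs1, a feedback inhibitor of cytokine signalling, at 22.1 and 82.0 CPM (1.89). The stress-inducible Gadd45b stood at 14.99 and 59.6 CPM (1.99). Nr4a2, an orphan nuclear receptor, had 9 young and 73 old UMIs, a ratio of 2.14 (1.13 to 3.32), against -1.21 in endothelium. Without barcodes that held 2 or more markers of another class, Nr4a2 stood at 1.01 (-1.60 to 4.41) on 2 young and 5 old UMIs, and Il6 at 0.86 (-0.41 to 2.27) on 8 and 18. In all Gdf10-side cells Cxcl1 stood at 246 and 399 CPM (0.70, 0.305 to 1.08) and Il6 at 74.8 and 94.1 CPM (0.33, -0.48 to 1.10). Both stood higher there than in members of the same library. Nr4a2 had a ratio of 2.85 (1.05 to 4.97) in Gdf10-side cells, Gadd45b 1.24 (0.11 to 2.35) and Socs1 0.52 (-0.73 to 1.69). In old members thinned to 1 depth, Cxcl1 was seen in 50.3% of those with Hes1 and 29.9% of those without, and Ccl2, a monocyte chemokine, in 32.6% and 15.8%. Cells of 1 mouse are not replicates, and a link between these genes was not tested. In young members Cxcl1 was seen in 24.1% with Hes1 and 22.1% without, and Ccl2 in 13.8% and 14.4%.

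Other genes of this ranking had different roles. Dmkn stood at 12.9 CPM in young members and 75.01 CPM in old members (2.55, 1.85 to 3.33), Krt19 at 12.9 and 54.9 CPM (2.10), and Mrgprg at 41.4 and 172 CPM (2.05). Akr1c18 stood at 183 and 165 CPM (-0.15). Tgfb2, a TGF-beta ligand, stood at 45.0 and 117 CPM (1.38), while the ratio in endothelium was 0.11. Rdh10, which oxidises retinol, stood at 10.7 and 39.8 CPM (1.90), Matn4, a matrilin, at 1.92, Cox6b2, a subunit of cytochrome oxidase, at 1.79, and Rec114, a meiotic recombination gene with 4 young and 50 old UMIs, at 2.76. In Gdf10-side cells Rdh10 had a larger ratio, from 1.56 to 85.1 CPM (5.77, 3.12 to 11.15). Tgfb2 stood there at 0.44 (-0.98 to 1.73), Cox6b2 at -0.007 (-1.285 to 1.13) and Matn4 at -0.06 (-5.775 to 3.58).

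**Figure D3:**
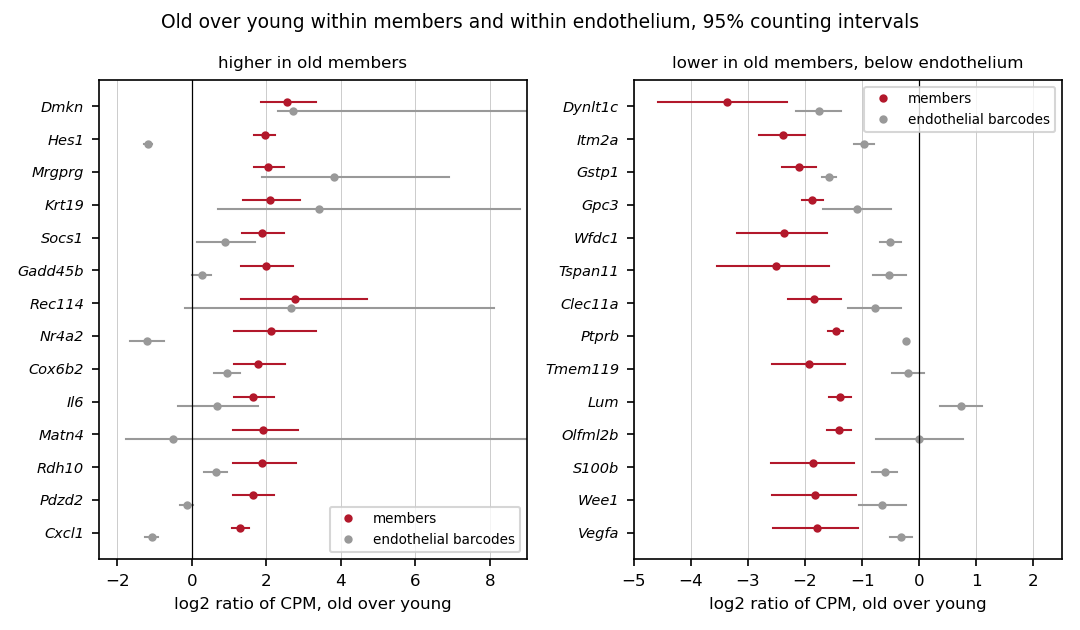
Log2 ratios of CPM, old over young, in members and in endothelial barcodes, with 95% counting intervals, for genes higher in old members that met no criterion for RNA from another class (left) and for genes lower in old members whose interval lay below that in endothelium (right). Hes1, Nr4a2 and Cxcl1 lie on opposite sides of 0 in the 2 classes, at 1.95 and -1.18, 2.14 and -1.21, and 1.30 and -1.08.

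Of the 12 genes lowest in old members, most were low in old endothelium too. Nme2 had a ratio of -3.41 in members and -3.26 in endothelium, Vps8 -3.36 and -3.83, Snhg9 -2.73 and -2.43, Plac9b -2.35 and -2.14, Bloc1s1 -2.11 and -1.79, and Myadm -2.03 and -1.66. Of these, 98.9% of the 3′ sequence of Nme2 is found in other genes, for Plac9b 95.4% and for Bloc1s1 47.7%, so their counts depend on how shared reads were assigned. For Dynlt1c (-3.36) the shared part was 69.5% and for Gstp1 (-2.11) 37.7%. Myoc, Itm2a and Gpc3 shared none. Myoc, myocilin, stood at 56.4 CPM in young members and 7.73 CPM in old members (-2.87), against 0.36 in endothelium. Itm2a, a membrane protein of developing mesenchyme, stood at 142 and 27.1 CPM (-2.39, against -0.97), and at equal depth was seen in 37.6% of young and 10.8% of old members. Gpc3, a heparan sulfate proteoglycan of the cell surface, stood at 531 and 145 CPM (-1.87, against -1.09), and was seen in 75.2% and 39.1%.

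Most fibrillar collagen genes had ratios below 0 in old members, few of them past 2-fold. Of 24 fibrillar and associated collagen genes 22 had ratios below 0 and 17 had intervals below 0 (16.7% of all genes did), with a median of -0.53 against -0.08 over all genes. Of these, 2 were at least 2-fold lower and 0 higher. The same list had a median of -0.37 in endothelium. In Gdf10-side cells the median was -0.66 over 19 genes, with 9 at least 2-fold lower and 0 higher. Without mitochondrial, ribosomal, haemoglobin and rule genes in the CPM total, the median in members was -0.40 and 20 of 24 ratios were below 0. Network and basement membrane collagens had a median of -0.52 over 17 genes in members with 0 at least 2-fold higher and 1 lower. Proteoglycans and matrix glycoproteins had a median of -0.32 over 37, with 6 at least 2-fold lower and 2 higher, Prg4, lubricin (1.98), and Matn4 (1.92). Among matrix proteases and their inhibitors 2 of 25 were at least 2-fold higher, Mmp3 (1.64) and Timp1 (1.26), and 1 lower. Without barcodes that held 2 or more markers of another class, Prg4 stood at 0.62 and Mmp3, on 4 young and 2 old UMIs, at -1.31. Col1a1 stood at 1970 CPM in young members and 894 CPM in old members (-1.14, -1.22 to -1.06), and Col3a1 at 2512 and 1427 CPM (-0.82). Col1a1 and Lum helped to choose the fibroblasts, so their values are a description. Lum, lumican, a proteoglycan that spaces collagen fibrils, stood at 408 and 156 CPM (-1.39), against a ratio of 0.73 in endothelium. For Lum and Col1a1 this was also so in Gdf10-side cells, at -1.53 and -1.58. Of 14 elastic fibre genes 12 had ratios below 0, with a median of -0.49 and 0.19 in endothelium. In Gdf10-side cells the median was -0.63, with 5 of 14 at least 2-fold lower and 1 higher, against 0 and 0 in members. Without barcodes with 2 or more markers of another class the elastic fibre median in members was -0.20, with 9 of 12 below 0. The 8 fibroblast genes of the rule were all lower in old members, with a median of -0.75. Reservoir genes had a median of -0.34 over 29, with Pi16 at -0.90 and Dpt at -0.75.

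**Figure D4:**
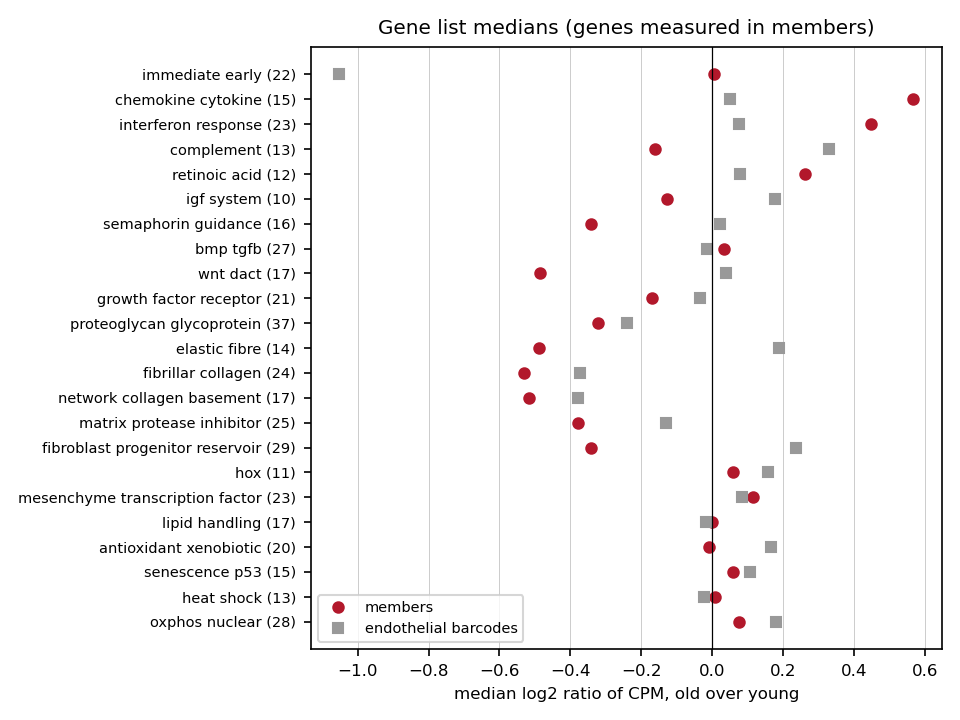
Median log2 ratio of CPM, old over young, for each gene list in members and in endothelial barcodes. Immediate early genes lie at 0.006 in members and -1.05 in endothelium, and fibrillar collagens at -0.53 and -0.37.

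Immediate early genes respond within minutes to stimuli and to tissue dissociation. Of 22 measured, 1 was at least 2-fold higher and 1 at least 2-fold lower in old members, with a median of 0.006. In endothelium 12 of the 22 were at least 2-fold lower, with a median of -1.05. The difference between the classes was smaller without barcodes that held 2 or more markers of another class. Of the 17 genes then measured in members, 16 had ratios below 0 and 4 were at least 2-fold lower, with a median of -0.61, against -1.11 in endothelium. Fos stood at 1398 CPM in young members and 838 CPM in old members (-0.74), against -1.94 in endothelium, and Atf3 had -0.79 against -2.78. At 3900 UMIs per cell the summed list had a median of 47 UMIs in young and 40 in old members, and 39 and 24 UMIs in endothelial barcodes. Interferon response genes had a median of 0.45 in members over 23 genes, with 3 at least 2-fold higher and 0 lower. The median was 0.075 in endothelium and, over 6 genes, 0.53 in Gdf10-side cells. Of the 23, 9 stood in another class at over 3 times the CPM in members. When barcodes with 2 or more markers of another class were left out, 5 were measured, with 0 past 2-fold and a median of 0.35. Of the 23 genes, Irf1, an interferon-induced transcription factor, stood at 56.4 and 122 CPM (1.12) and Isg15, a ubiquitin-like protein, at 19.3 and 44.9 CPM (1.22).

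Chemokine and cytokine genes had 5 of 15 at least 2-fold higher and 1 lower in old members, against 1.96% and 2.52% of all genes. Their median was 0.57. In Gdf10-side cells 4 of 12 were at least 2-fold higher and 1 lower, with a median of 0.56. At 3900 UMIs per cell the summed list did not rise in members, with medians of 11 UMIs in young and 10 in old. In Gdf10-side cells these were 10 and 15 UMIs. Of the 15, 7 stood in another class at over 3 times the CPM in members. When barcodes with 2 or more markers of another class were left out, 8 were measured, with 1 higher, 1 lower and a median of 0.17. Nuclear genes of oxidative phosphorylation had 0 of 28 past 2-fold in either direction, with a median of 0.08, and Hox genes 0 of 11. Pathways of the rule genes follow. In the insulin-like growth factor system 1 of 10 genes was at least 2-fold higher and 3 lower in old members, against 1.96% and 2.52% of all genes. These counts, like those of the next 3 pathways, include the rule gene of the pathway. Igf1 was lower (-1.49), as were the clearance receptor Igf2r (-1.08) and Igfbp7 (-1.06), and the adaptor Irs2 was higher (1.24). Of 17 Wnt genes 0 were higher and 2 lower, Wnt5a (-1.31) and Fzd1 (-1.05). Of 12 retinoic acid genes 1 was higher, Rdh10, and 1 lower, Aldh1a1 (-1.37), a retinaldehyde dehydrogenase like Aldh1a3. Of 16 semaphorin and guidance genes 1 was higher, Sema3e (1.30), and 0 lower.

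**Figure D5:**
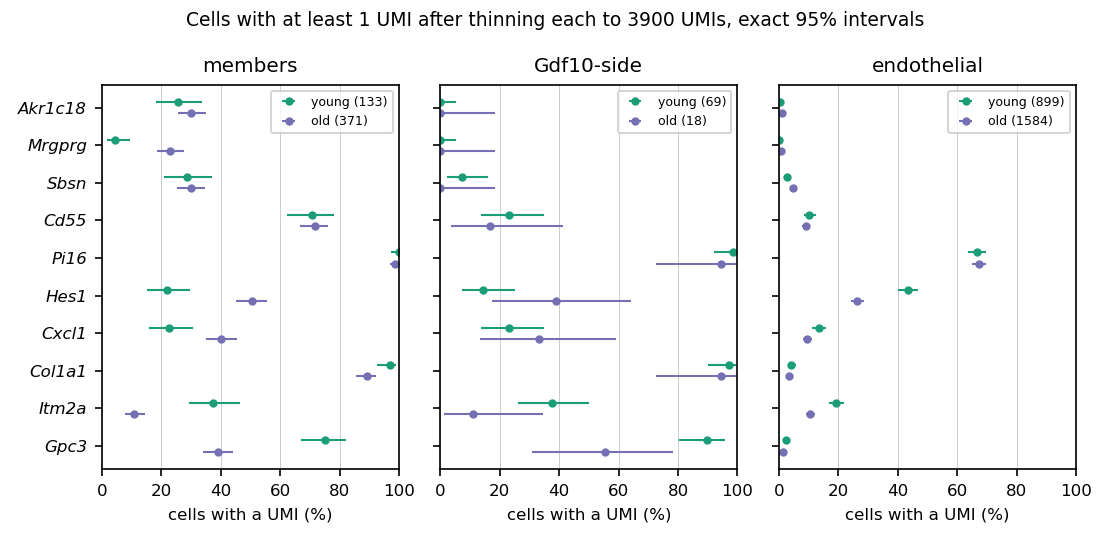
Share of cells with at least 1 UMI of 10 genes after each cell was thinned to 3900 UMIs, in members, Gdf10-side fibroblasts and endothelial barcodes of the young and the old library, with exact 95% intervals. Mrgprg, at 4.51% and 22.9%, and Hes1, at 21.8% and 50.4%, are higher in old members, and Itm2a and Gpc3 are lower.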

How the data were processed

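UMI counts of 27998 genes in each barcode were deposited by the authors as whole numbers, not normalized, in 1 young and 1 old library. Cell Ranger and the GRCm38 genome are named per the submitters' processing notes, with version and gene models not given in the sources used here. No barcode was left out beside the rule. Counts were summed per class and library. Ratios carry exact conditional binomial 95% intervals, and shares exact Clopper-Pearson intervals. Genes with at least 50 UMIs were compared, and 2-fold is a log2 ratio of 1 or -1. Genes with a CPM over 3 times the members' in another class of at least 20 cells are marked as possible RNA from outside. Equal depth is 3900 UMIs, the 25th percentile of old members rounded down. The doublet alternative left out barcodes with 2 or more macrophage, T or NK, B or smooth muscle markers. It also left out fibroblasts with 2 or more endothelial genes. Erythroid, pericyte, Schwann and mesothelial markers were not used in it.

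The genes named are the 12 highest and 12 lowest by age, the 15 highest and 15 lowest against Gdf10-side cells and the 10 highest against endothelium, by the interval bound nearest to equality, and the 2 highest and 2 lowest of each list described. Mitochondrial, ribosomal, haemoglobin, unnamed, Xist, Tsix and Y-linked genes were left out. Other genes were named after their values were seen. Members and lists were chosen with earlier results of these data known. On simulated counts for 7137 genes of old over young in members, with 200 altered, the interval held the true ratio in 95.8%. Gene positions come from GENCODE on GRCm38. Clustering used scanpy 1.11.5 (2000 variable genes, 30 components, 15 neighbours, resolution 0.5). Python 3.11.15, numpy 2.4.6, scipy 1.17.1 and pandas 2.3.3 were used. Of the 12 lowest by age 1 is not reported here, and of the list genes only some are described. There were 14 alternatives and 4 added after seeing the data.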

Additional observations from a re-analysis of the deposited data

Results flagged for a closer look

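Hes1 had a log2 ratio of old over young of 1.95 in members and -1.18 in endothelial barcodes, in opposite directions, and Cxcl1 of 1.30 and -1.08. Nr4a2 had 2.14 and -1.21, on 9 young and 73 old UMIs in members. In Gdf10-side fibroblasts each was higher in old as well, Hes1 at 1.52 (0.76 to 2.29), Cxcl1 at 0.70 (0.305 to 1.08) and Nr4a2 at 2.85 (1.05 to 4.97). The direction was thus shared by both groups of fibroblasts. Each age rests on 1 library, so the difference between members and endothelium was not tested for any of the 3. Without barcodes that carried 2 or more immune markers, Hes1 stood at 2.03 and -1.20, Cxcl1 at 1.42 and -1.26, and Nr4a2 at 1.91 and -1.09. Without barcodes that held 2 or more markers of another class, Hes1 stood at 2.56 and -1.19 and Cxcl1 at 1.63 and -1.26. Nr4a2 then stood at 1.01 in members, on 2 young and 5 old UMIs and with an interval that spanned 0 (-1.60 to 4.41). Only fibroblasts were filtered on endothelial genes there, so the values in members and in endothelium rest on unlike filters.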

How the results depend on the processing

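No paired analysis was possible because each age has 1 library. The share of members among old fibroblasts (88.1%) became 81.8% when the sums had to differ by at least 5 UMIs, 84.9% without Igfbp5, 80% without barcodes that held 2 or more markers of another class, and 93.4% with the rule on thinned barcodes. The young share (62.2%) became 55.0% when the number of genes detected decided the side, 52.9% without Igfbp5, and 47.3% without barcodes with other markers. Without those barcodes the counts of genes at least 2-fold higher and lower were 27 and 57 by age, in place of 140 and 180, and 31 and 25 against Gdf10-side cells, in place of 109 and 95. The median of the immediate early genes in members was then -0.61 in place of 0.006. Against Gdf10-side cells they were 53 and 46 with cells thinned to equal depth and 56 and 37 with the rule on thinned barcodes. Genes higher than in endothelium (699) became 444 and 449 under those settings. With at least 20 UMIs the counts were 341 and 393 by age and 164 and 179 against Gdf10-side cells. With at least 200 UMIs they were 35 and 53, 43 and 28, and 374 higher than in endothelium. Smaller sets of cells or genes entered these counts by construction. Where the minimum of UMIs was still met, 0 ratios of named genes and lists that were at least 2-fold turned their sign in the 14 planned and 4 added alternatives. Below that minimum, 8 named genes at least 2-fold higher in old members had ratios below 0 without barcodes with other markers, on 1 to 15 UMIs in all and with 3 counts in place of 0, namely C1qb, C1qc, Cd52, Cxcl2, Esam, Mmp3, Tyrobp and Wisp2. Depth limits the Gdf10-side comparison, since the old library held 56 such cells with 223161 UMIs in all, and no alternative shows the spread between animals.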
